A study of Rattus norvegicus with 8 samples.

Results

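The genes for sodium, calcium, transient receptor potential (TRP) and chloride channels were examined in the spinal cord of rats with experimental autoimmune encephalomyelitis (EAE). Members were taken by gene symbol: every transcript cluster (the set of probes for 1 transcribed locus) with a single symbol that begins as a sodium channel, calcium channel, TRP, mucolipin, inositol trisphosphate (IP3) receptor, Orai, CLC, CLIC, Clca, anoctamin, HCN, cyclic nucleotide-gated or acid-sensing channel gene. This gave 78 clusters, for 78 genes, of the 8793 clusters measured. The 4 clusters that carry the symbols of 2 channel genes, which join Scn3a with Scn1a, Scn2a or Scn9a and Trpv1 with Trpv4, were left out. The search also covered ryanodine receptor, Stim, Piezo and proton channel symbols, but no cluster carried such a symbol alone.

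Total RNA of whole spinal cord was hybridised to exon arrays, 1 array for each rat, from 4 rats with EAE induced by myelin basic protein (MBP-EAE) and 4 healthy control rats. All 8 were virgin Lewis females, 16 weeks old by the sample labels and younger by the methods, and all cords were taken on day 13. MBP-EAE rats had received 50 µg of MBP in incomplete Freund's adjuvant with mycobacteria, under the skin at the tail base. The MBP is named as recombinant in the methods and as purified from guinea pig brain in the labels. Healthy controls were untreated littermates of like age, so that effects of MBP and of adjuvant cannot be told apart. Each value is the log2 of a background-corrected, quantile-normalized intensity, and a log2 fold change is the MBP-EAE mean minus the healthy mean, with the standard error from limma after the ± sign. Values by rat are listed in the order 217, 218, 219 and 241 for MBP-EAE and 193, 194, 195 and 196 for healthy control.

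Voltage-gated sodium channels carry the upstroke of the action potential and are packed at the axon initial segment and the nodes of Ranvier, and voltage-gated calcium channels turn depolarisation into calcium entry that triggers transmitter release. Most TRP channels pass cations in answer to lipids, oxidants, heat or receptor signals, and IP3 receptors release calcium from the endoplasmic reticulum. CLC proteins are chloride channels of the cell surface or chloride-proton exchangers of endosomes and lysosomes, HCN channels carry the pacemaker current, and acid-sensing channels open on a fall of outside pH.

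Of the 78 channel genes, 31 passed the threshold (limma, adjusted p under 0.05), 7 higher and 24 lower in MBP-EAE. These are 39.7% of the members, against 25.9% of all clusters called in the same fit. The 7 higher genes are 8.97% of the members, beside 11.3% of all clusters, and the 24 lower genes are 30.8%, beside 14.6%. The 4 MBP-EAE and the 4 healthy values did not overlap for 29.3% of all clusters. Of the members, 8 had all MBP-EAE values above (12% of all clusters had) and 26 all below (17.3%). The median log2 fold change was -0.24 over the members and -0.10 over all clusters, and 65 of the 78 values were negative, beside 5667 of the 8793 clusters. Cyclic loess between the arrays moved the median of all clusters to -0.003 and that of the members to -0.15. The largest rises were of Trpm2 (4.41-fold), Clic1 (4.16-fold) and Trpc6 (2.75-fold), and the largest falls were of Trpc1 (2.01-fold) and Cacna2d1 (1.91-fold). In RNA of a whole tissue, fewer cells of a type and less RNA per cell cannot be told apart.

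**Figure D1:**
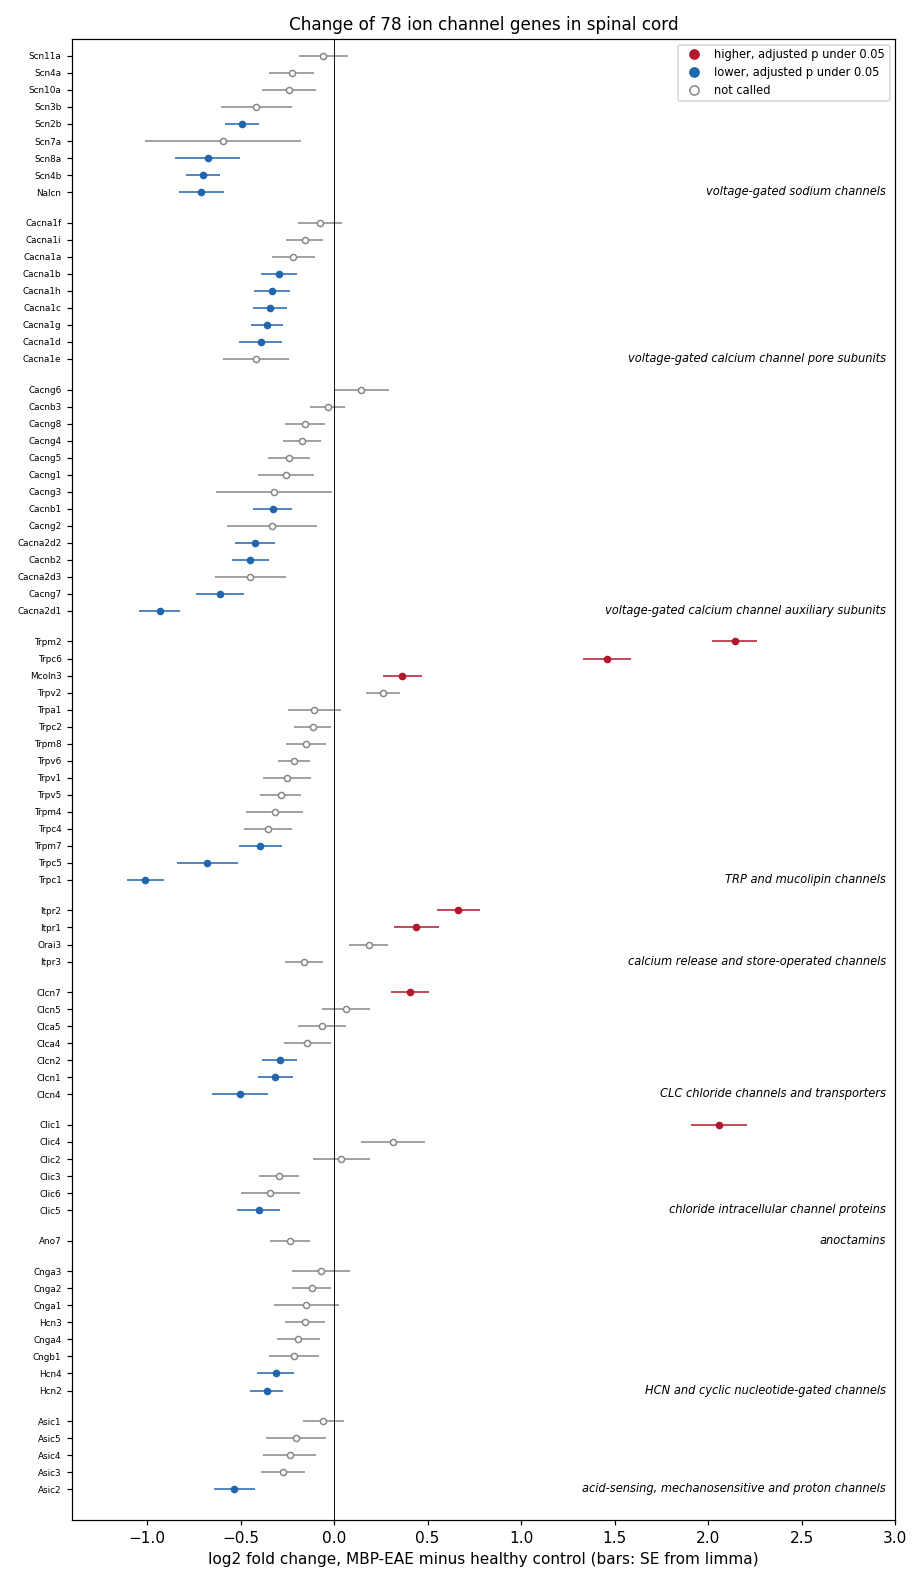
The log2 fold change (MBP-EAE minus healthy control, x axis) of each of the 78 channel genes, with the standard error from limma as a bar, grouped by family. Filled red points mark the 7 genes called higher, filled blue points the 24 called lower and open points the 47 that were not called. The sodium channel, calcium channel pore, HCN and cyclic nucleotide-gated, acid-sensing and anoctamin groups hold no value above 0.

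The cords differed in their cell type markers, where 11.3% of all clusters were called higher and 14.6% lower. All 11 measured markers of monocytes, macrophages and microglia were higher in MBP-EAE, with a mean log2 value per rat of 9.05 to 9.26 in MBP-EAE and 6.09 to 6.32 in healthy cords, and so were 6 of 6 T cell markers (5.90 to 6.14 in MBP-EAE, 3.90 to 4.30 in healthy cords). Of the neurone markers, 7 of 14 were lower (7.91 to 8.21 in MBP-EAE, 8.31 to 8.60 in healthy cords), and of 11 clusters for oligodendrocyte markers 7 were lower (8.67 to 9.00 in MBP-EAE, 9.07 to 9.52 in healthy cords). Astrocyte markers had 3 of 7 higher, with means that overlapped (9.41 to 9.90 in MBP-EAE, 9.12 to 9.94 in healthy cords), endothelial markers had 0 of 4 called, and of the other lists Tagln and Egr2 were higher and Rgs5, Sox10 and Hbb-b1 lower. The part of these shifts in the channel results was not tested. The array of healthy rat 195 had a narrower spread of values than the rest, with an interquartile range of 2.23 against 2.61 to 2.93.

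The rank of rat 195 among the healthy rats varied with the signal level of the members, and the cause was not tested. Among the 16 members under the lower quartile of all clusters (a mean log2 value of 4.03), rat 195 had the highest of the 4 healthy values for 15, and among the 35 at or above the median (5.02) it had the lowest for 23. Rat 193 ran the other way, with the lowest healthy value for 12 of the 16 dim members and the highest for 20 of the 35 brighter ones. Over all clusters the same shares for rat 195 were 78.3% highest among dim clusters and 50.8% lowest among the brighter ones. None of the 16 dim members was called by limma, although 2 were lower at an unadjusted p under 0.05, and 4.46% of all such dim clusters were called. The genes for the photoreceptor and olfactory channels Cnga1, Cnga2, Cnga3 and Cnga4, for the sensory neurone channels Scn10a, Scn11a, Trpa1, Trpm8 and Trpv1, and for Cacna1f, Trpc2, Trpv5, Clca4, Clca5, Clic6 and Asic3 make up this group. Of the 27 members between the lower quartile and the median 9 were called (33.3%, with 19.3% of all such clusters), and of the 35 at or above the median 22 were (62.9%, with 39.8%). Among those 35, 5 were higher and 17 lower, with a median log2 fold change of -0.36, against -0.09 over all clusters of that level. The level is the mean over all 8 rats and so depends on the change itself. Trpm2, Clic1, Clcn7 and Orai3 lay above the median level in MBP-EAE alone, and Scn2b, Cacna1c and Trpv6 in healthy cords alone. The counts by level are a description.

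**Figure D2:**
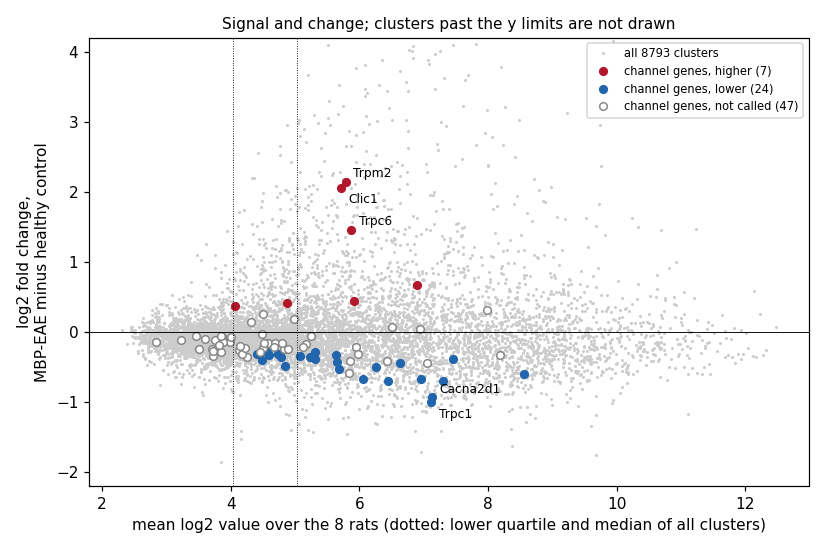
Log2 fold change (MBP-EAE minus healthy control, y axis) against the mean log2 value over the 8 rats (x axis) for all clusters in grey and the 78 channel genes as larger points. The dotted lines stand at 4.03 and 5.02, and no channel gene left of the first line was called; 24 clusters lie outside the y limits and are not drawn.

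Of the 9 sodium channel genes, 4 were lower (Nalcn, Scn4b, Scn8a and Scn2b), 0 higher and 5 not called, and the median log2 fold change was -0.49. The share called was 44.4%, beside 25.9% of all clusters. Nalcn encodes the sodium leak channel that helps to set the resting potential of neurones, and it had the brightest healthy signal of the family. Its log2 values were 6.98, 6.80, 6.96 and 7.03 in MBP-EAE and 7.83, 7.60, 7.38 and 7.80 in healthy cords. The groups did not overlap, and the difference was 1.63-fold lower in MBP-EAE (log2 fold change -0.71 ± 0.12, limma adjusted p = 0.00184).

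Scn4b and Scn2b encode the beta subunits that are bound to the pore by a disulphide bridge, and they neighbour each other on chromosome 8. Scn4b was at 6.07, 6.09, 6.04 and 6.17 in MBP-EAE and 6.74, 6.86, 6.70 and 6.88 in healthy cords. The 4 MBP-EAE values lay within 0.13 of each other and all below the healthy ones, with a log2 fold change of -0.70 ± 0.09 (adjusted p = 0.000307). For Scn2b the values were 4.57, 4.49, 4.70 and 4.60 in MBP-EAE and 4.98, 5.14, 5.08 and 5.13 in healthy cords, again with no overlap (log2 fold change -0.49 ± 0.09, adjusted p = 0.00305). Both calls held with each rat left out in turn, as did that of Nalcn.

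Scn8a, the pore subunit of mature nodes of Ranvier and initial segments, had log2 values of 6.57, 6.42, 6.74 and 6.76 in MBP-EAE and 7.70, 7.34, 6.81 and 7.35 in healthy cords. Rat 195 was the lowest healthy value and came close to the highest MBP-EAE value. The fall was 1.60-fold (log2 fold change -0.68 ± 0.17, adjusted p = 0.0178). Without MBP-EAE rat 218 it missed the threshold (adjusted p = 0.0507), and over the 8 fits with 1 rat left out the adjusted p ran between 0.00110 and 0.0507, lowest without rat 195. Scn3b, a beta subunit not held by a disulphide bridge, was at 5.64, 5.52, 5.64 and 5.81 in MBP-EAE and 6.40, 6.12, 5.45 and 6.29 in healthy cords. Rat 195 alone made the groups overlap there, and Scn3b was not called with all rats (adjusted p = 0.142) but was without rat 195 (log2 fold change -0.62, adjusted p = 0.00233). Scn7a, the sodium-sensing channel of glia, was at 5.81, 5.56, 5.99 and 4.83 in MBP-EAE and 6.75, 5.40, 7.11 and 5.31 in healthy cords. Its healthy SD of 0.92 was the largest of the members, and its difference was smaller than that SD (log2 fold change -0.59, adjusted p = 0.337). The skeletal muscle gene Scn4a and the sensory neurone genes Scn10a and Scn11a had overlapping groups.

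Promoter sequences were looked up in RefSeq (build GRCr8) by gene ID and were found for 62 of the 78 members, as the 250 bases before the first listed start. Those of Scn4b (chr8:54343623-54343872, plus strand) and Scn8a (chr7:133860977-133861226, plus strand) are shown because these 2 sodium channel genes fell by nearly the same amount while their promoters differ in composition. Capitals mark GC boxes (GGGCGG on either strand).
Scn4b: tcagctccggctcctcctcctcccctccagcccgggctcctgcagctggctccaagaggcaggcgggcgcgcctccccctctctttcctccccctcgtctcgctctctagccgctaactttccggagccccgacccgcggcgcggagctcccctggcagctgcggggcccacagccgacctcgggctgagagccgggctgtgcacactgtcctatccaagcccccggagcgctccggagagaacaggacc
Scn8a: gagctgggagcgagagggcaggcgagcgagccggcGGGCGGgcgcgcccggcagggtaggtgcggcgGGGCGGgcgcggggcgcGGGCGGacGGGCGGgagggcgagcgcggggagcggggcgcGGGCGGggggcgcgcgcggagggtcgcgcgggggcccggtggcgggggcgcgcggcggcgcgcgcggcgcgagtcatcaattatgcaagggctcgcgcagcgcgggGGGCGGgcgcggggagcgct
The Scn8a sequence holds 6 GC boxes and is 86.0% G and C, whereas that of Scn4b holds none and is 71.6% G and C. A GC box was present in 26 of the 62 member promoters (41.9%), beside 32.4% of the 27457 genes with a promoter in the table. By call, 2 of 6 higher, 10 of 18 lower and 14 of 38 uncalled members had at least 1 such match. A match of letters is a description of the window and not a bound site.

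Of the 9 calcium channel pore genes, 5 were lower, 0 higher and 4 not called, and the median log2 fold change was -0.33. These calls are 55.6% of the family, beside 25.9% of all clusters. The largest called fall was of Cacna1d, an L-type pore, at 5.13, 4.95, 5.19 and 5.16 in MBP-EAE and 5.72, 5.43, 5.29 and 5.56 in healthy cords. Rat 195 lay closest to the MBP-EAE values, without overlap (log2 fold change -0.39 ± 0.11, adjusted p = 0.0299). Cacna1g, a T-type pore that opens near the resting potential, was at 4.57, 4.63, 4.64 and 4.57 in MBP-EAE and 4.95, 4.85, 5.04 and 5.00 in healthy cords. It was the pore gene whose call held with each rat left out (log2 fold change -0.36 ± 0.09, adjusted p = 0.0129). Cacna1c, the other L-type pore called, was at 4.88, 4.90, 4.96 and 4.87 in MBP-EAE and 5.37, 5.12, 5.28 and 5.21 in healthy cords. Its groups were separate as well (log2 fold change -0.34 ± 0.09, adjusted p = 0.0201).

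Cacna1h, a T-type pore, and Cacna1b, the N-type pore of presynaptic endings, were also called (log2 fold changes -0.33 ± 0.10 and -0.29 ± 0.10, adjusted p = 0.0305 and 0.0488). Cacna1b was the member nearest to the threshold on its called side, with log2 values of 5.18, 5.14, 5.20 and 5.11 in MBP-EAE and 5.60, 5.41, 5.28 and 5.50 in healthy cords. The groups were 0.08 apart at their nearest, and its call was lost without any of the rats other than 195 (adjusted p = 0.0789 to 0.124). Cacna1e, the R-type pore and the brightest of the family in healthy cords, was at 6.33, 5.98, 6.37 and 6.22 in MBP-EAE and 7.00, 6.64, 6.14 and 6.78 in healthy cords. Rat 195 fell among the MBP-EAE values, and the gene was called without it (adjusted p = 0.113 with all rats and 0.00787 without rat 195, log2 fold change -0.42 and -0.58). The P/Q-type gene Cacna1a, the T-type gene Cacna1i and the retinal L-type gene Cacna1f were not called, with log2 fold changes of -0.22, -0.16 and -0.08. The number of pore genes called was 1 without rat 217 or 241, 2 without rat 196, 3 without rat 218, 219, 193 or 194, and 6 without rat 195. Cacna1d lost its call without rat 217, 218, 241, 193, 194 or 196 (adjusted p = 0.0562 to 0.0826), Cacna1h without rat 217, 219, 241 or 196 (0.0638 to 0.0904), and Cacna1c without rat 217 or 241 (0.0619 and 0.0596).

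Auxiliary calcium channel subunits help pores to reach the membrane and tune their gating, although several gamma subunits serve AMPA-type glutamate receptors instead. Of 14 members 5 were lower, 0 higher and 9 not called (35.7% called, beside 25.9% of all clusters), with a median log2 fold change of -0.33. Cacna2d1, an alpha2delta subunit and the binding site of gabapentin, was at 6.78, 6.46, 6.67 and 6.73 in MBP-EAE and 7.52, 7.51, 7.55 and 7.79 in healthy cords. All MBP-EAE values were at least 0.73 below the lowest healthy one, and the fall of 1.91-fold was the largest among the calcium channel genes (log2 fold change -0.93 ± 0.11, adjusted p = 0.000173). Cacna2d2, its relative, was 1.34-fold lower (log2 fold change -0.42 ± 0.11, adjusted p = 0.0154). Cacna2d3 was at 6.84, 6.54, 6.94 and 6.99 in MBP-EAE and 7.54, 7.44, 6.69 and 7.43 in healthy cords. There again rat 195 alone lay among the MBP-EAE values, and the gene passed without it (log2 fold change -0.64, adjusted p = 0.00356, against adjusted p = 0.114 with all rats).

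Cacng7 encodes a gamma subunit that travels with AMPA receptors and was the brightest of the auxiliary genes in healthy cords. Its log2 values were 8.30, 8.15, 8.28 and 8.31 in MBP-EAE and 9.02, 8.91, 8.50 and 9.03 in healthy cords. The groups were separate, with rat 195 the lowest healthy value (log2 fold change -0.61 ± 0.13, adjusted p = 0.00618). Its neighbours on chromosome 1, Cacng8 and Cacng6, were not called (log2 fold changes of -0.15 for Cacng8 and 0.15 for Cacng6). Stargazin, Cacng2, and Cacng3, which serve AMPA receptors as well, had log2 fold changes of -0.33 and -0.32 with rat 195 the lowest of all 8 values for Cacng3. The neighbouring genes Cacng1, Cacng4 and Cacng5 of chromosome 10 were not called either. Of the fits with 1 rat left out, Cacng1, the gamma subunit of skeletal muscle, passed in that without rat 193 alone (adjusted p = 0.0470, and up to 0.488 with another). It also passed in 1 of the 9 other alternative analyses that tested it.

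Of the beta subunits, which sit on the inner face of the pore, Cacnb2 was at 6.49, 6.33, 6.38 and 6.45 in MBP-EAE and 6.86, 6.92, 6.67 and 7.00 in healthy cords. The lowest healthy value stood clear of the highest MBP-EAE value (log2 fold change -0.45 ± 0.10, adjusted p = 0.00863). Cacnb1 was called at -0.33 ± 0.10 (adjusted p = 0.0413) and lost its call without each rat but 219 (adjusted p = 0.0522 to 0.123), and Cacnb3 had a log2 fold change of -0.03 with groups that overlapped. The other 4 called auxiliary genes kept their calls with each rat left out.

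TRP and mucolipin genes went both ways. Of 15 members 3 were higher (Trpm2, Trpc6 and Mcoln3), 3 lower (Trpc1, Trpc5 and Trpm7) and 9 not called, with a median log2 fold change of -0.21. So 40% of the family were called, beside 25.9% of all clusters. Trpm2, a calcium-permeable channel opened by ADP-ribose under oxidative stress and abundant in phagocytes, had log2 values of 7.13, 6.62, 6.84 and 6.84 in MBP-EAE and 4.59, 4.81, 4.72 and 4.75 in healthy cords. All MBP-EAE values stood far above all healthy ones, and the rise of 4.41-fold was the largest of the 78 (log2 fold change 2.14 ± 0.12, adjusted p = 6.09e-07). Trpc6, a channel opened by diacylglycerol, was at 6.38, 6.81, 6.42 and 6.80 in MBP-EAE and 5.11, 5.27, 5.00 and 5.19 in healthy cords. The nearest values of the groups were 1.11 log2 units apart (2.75-fold higher, log2 fold change 1.46 ± 0.13, adjusted p = 2.24e-05). The macrophage and microglial markers moved with these genes, and their part in the rises was not tested.

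Mcoln3, a channel of endosomes and lysosomes, was at 4.38, 4.34, 4.13 and 4.13 in MBP-EAE and 3.77, 3.85, 4.04 and 3.86 in healthy cords. The groups were separate by 0.09 (log2 fold change 0.37 ± 0.10, adjusted p = 0.0277), and the call was lost without rat 217, 218, 193, 194 or 196 (adjusted p = 0.0537 to 0.0915). Trpv2, a cation channel also found in macrophages, was the uncalled member nearest to the threshold, at 4.59, 4.67, 4.54 and 4.70 in MBP-EAE and 4.24, 4.36, 4.44 and 4.42 in healthy cords. Its groups did not overlap (log2 fold change 0.26 ± 0.09, adjusted p = 0.0621). Of the fits with 1 rat left out, that without rat 195 alone called it (adjusted p = 0.0459, and up to 0.160 with another rat left out). It was also called in 6 of the 9 other alternative analyses that tested it.

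Trpc1 encodes a subunit that joins with its relatives Trpc4 and Trpc5 in receptor-operated channels, and it showed the largest fall of all members. It was at 6.68, 6.50, 6.53 and 6.71 in MBP-EAE and 7.49, 7.69, 7.54 and 7.74 in healthy cords. The groups lay 0.78 log2 units apart at their nearest (2.01-fold lower, log2 fold change -1.01 ± 0.10, adjusted p = 5.82e-05). Trpc5 was at 5.85, 5.65, 5.70 and 5.68 in MBP-EAE and 6.80, 6.37, 5.94 and 6.48 in healthy cords. Rat 195 came nearest to the MBP-EAE values, which stayed below it (log2 fold change -0.68 ± 0.16, adjusted p = 0.0126). Trpc4 had a log2 fold change of -0.35 with overlapping groups (adjusted p = 0.0698). Of the fits with 1 rat left out, Trpc4 passed in that without MBP-EAE rat 219 alone (adjusted p = 0.0374, and up to 0.186 with another rat left out). It also passed in 1 of the 9 other alternative analyses that tested it. Trpm7, a magnesium-permeable channel fused to a kinase and the brightest TRP gene in healthy cords, was at 7.29, 7.20, 7.15 and 7.37 in MBP-EAE and 7.42, 7.60, 7.67 and 7.89 in healthy cords. Its groups were 0.05 apart at their nearest (log2 fold change -0.39 ± 0.12, adjusted p = 0.0313), and its call was lost without rat 217, 218, 219, 194 or 196 (adjusted p = 0.0648 to 0.0865).

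The remaining TRP genes were Trpa1, Trpc2, Trpm4, Trpm8, Trpv1, Trpv5 and Trpv6, all with negative log2 fold changes over the 8 rats, of -0.11 for Trpa1 at the small end (0.02 without rat 195) and -0.32 for Trpm4 at the large end. Trpv6, an epithelial calcium channel, had separate groups (log2 fold change -0.21, adjusted p = 0.0996). Of the fits with 1 rat left out, its neighbour on chromosome 4, Trpv5, passed in that without rat 193 alone (adjusted p = 0.0380). So did the heat and capsaicin receptor gene Trpv1 (adjusted p = 0.0387). With another rat left out the adjusted p reached 0.204 for Trpv5 and 0.344 for Trpv1. Of the 8 other alternative analyses that tested them, 3 called Trpv5 and 1 called Trpv1. The TRP count was 4 without rat 217, 218, 194 or 196.

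**Figure D3:**
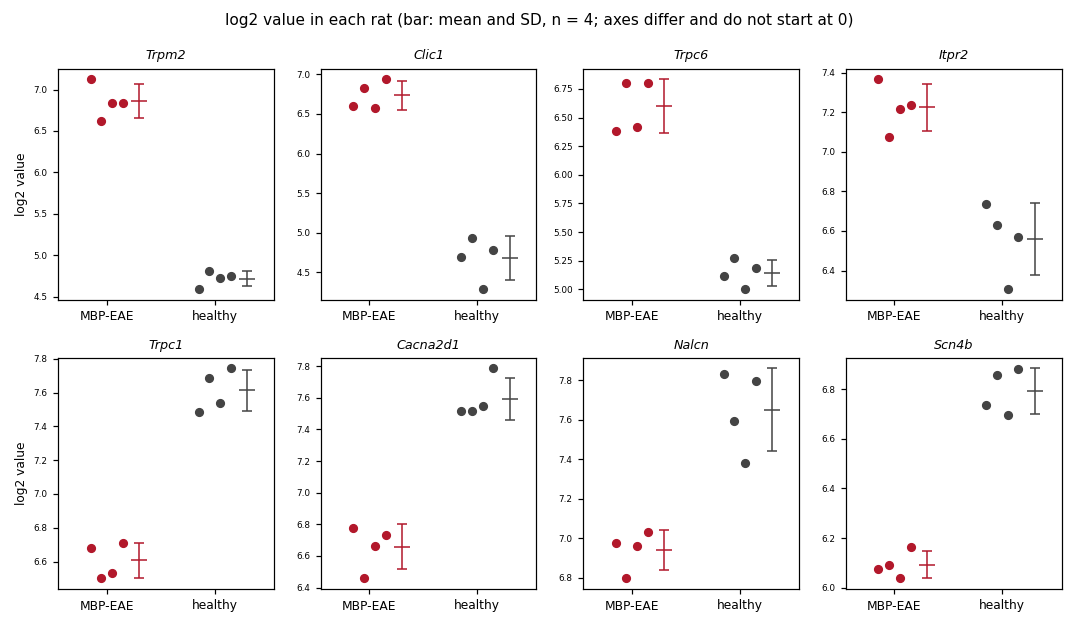
The log2 value (y axis, each panel on its own scale) in each of the 4 MBP-EAE rats (red, left) and 4 healthy rats (grey, right) for the 4 genes called higher in every leave-one-out fit with the largest rises and the 4 with the largest falls that were called in every such fit. The bars are means and SD, n = 4; in no panel do the groups overlap.

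The promoters of Trpm2 (chr20:10704222-10704471, plus strand, GRCr8) and Trpc6 (chr8:14043966-14044215, plus strand) are shown as those of the higher genes with the largest changes that had an entry. Capitals mark the GC box in Trpm2 and, in Trpc6, a match on the other strand to GAGGAAG, the core bound by the myeloid factor PU.1.
Trpm2: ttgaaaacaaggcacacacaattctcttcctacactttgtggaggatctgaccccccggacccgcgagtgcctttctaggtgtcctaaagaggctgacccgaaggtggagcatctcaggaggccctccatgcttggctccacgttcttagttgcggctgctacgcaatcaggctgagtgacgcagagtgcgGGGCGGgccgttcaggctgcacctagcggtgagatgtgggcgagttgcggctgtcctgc
Trpc6: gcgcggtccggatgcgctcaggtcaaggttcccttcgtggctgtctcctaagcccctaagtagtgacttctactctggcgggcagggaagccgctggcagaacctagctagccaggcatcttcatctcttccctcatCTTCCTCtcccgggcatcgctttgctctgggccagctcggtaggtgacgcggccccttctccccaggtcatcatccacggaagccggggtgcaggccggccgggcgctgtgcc
GAGGAAG was present on either strand in 10.1% of all promoters in the table and in 1 of the 62 member promoters, that of Trpc6. The interferon-stimulated element (GAAA, 2 free bases and GAAA, on either strand) was found in 2 of the 62, neither of a called gene, and in 3.29% of all promoters.

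Of the 4 calcium release and store-operated channel genes, the IP3 receptors Itpr2 and Itpr1 rose. Itpr3 and the store-operated channel gene Orai3 were not called (log2 fold changes -0.16 and 0.19). The share called was 50%, beside 25.9% of all clusters. Itpr2, the main IP3 receptor of astrocytes, was at 7.37, 7.08, 7.22 and 7.24 in MBP-EAE and 6.74, 6.63, 6.31 and 6.57 in healthy cords. The lowest MBP-EAE value stood above the highest healthy value (1.58-fold higher, log2 fold change 0.66 ± 0.12, adjusted p = 0.00221). Itpr1, the main IP3 receptor of neurones, was at 6.30, 6.00, 6.20 and 6.03 in MBP-EAE and 5.93, 5.75, 5.50 and 5.58 in healthy cords. The groups were separate by 0.08 (log2 fold change 0.44 ± 0.12, adjusted p = 0.0232), and the call was lost without rat 217, 219 or 196 (adjusted p = 0.0756, 0.0594 and 0.0694). It was lost too when the arrays were centred on their medians. Of the 7 astrocyte markers, Gfap, Slc1a3 and Gja1 were higher in the same cords (log2 fold changes 0.69, 1.15 and 0.69), while Aqp4, Slc1a2, Gjb6 and S100b were not called, with values of -0.18, -0.51, -0.61 and -0.38 and a list median of -0.18. Their part in the rise of Itpr2 was not tested.

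CLC genes had 1 of 7 higher, 3 lower and 3 not called, the Clca genes included (57.1% called, beside 25.9% of all clusters). Clcn7, the chloride-proton exchanger of lysosomes, was the one that went against the others. Its log2 values were 5.04, 5.10, 4.90 and 5.28 in MBP-EAE and 4.63, 4.68, 4.74 and 4.64 in healthy cords. The groups did not overlap (log2 fold change 0.41 ± 0.10, adjusted p = 0.0155), and the call held with each rat left out. Clcn4, an endosomal exchanger and the brightest of the family, was at 5.74, 5.99, 6.23 and 6.10 in MBP-EAE and 6.82, 6.58, 6.24 and 6.42 in healthy cords. MBP-EAE rat 219 and healthy rat 195 all but met (log2 fold change -0.50 ± 0.15, adjusted p = 0.0326), and the call was lost without rat 217, 218, 241, 193, 194 or 196 (adjusted p = 0.0579 to 0.0961).

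Clcn1, the chloride channel of skeletal muscle, was at 4.25, 4.31, 4.23 and 4.19 in MBP-EAE and 4.38, 4.65, 4.63 and 4.57 in healthy cords. The skeletal muscle markers averaged 4.70 to 4.75 in MBP-EAE. In healthy cords they averaged 6.04 in rat 194 and 4.66 to 4.90 in the other 3. Rat 194 had the highest Clcn1 value, close to that of rat 195. The muscle channel genes Scn4a and Cacng1 were highest in rat 195 (4.88 and 4.65, against 4.62 and 4.29 in rat 194). The part of muscle in the Clcn1 values was not tested. The fall was 1.24-fold (log2 fold change -0.31 ± 0.09, adjusted p = 0.0346), and it missed the threshold without each rat but 193 (adjusted p = 0.0507 to 0.105, and 0.105 without rat 194). Its log2 fold change was -0.28 without rat 194 and -0.29 without rat 195. Clcn2, a surface chloride channel of glia and neurones, was at 4.42, 4.54, 4.35 and 4.33 in MBP-EAE and 4.79, 4.69, 4.72 and 4.60 in healthy cords. Its groups were 0.07 apart (log2 fold change -0.29 ± 0.09, adjusted p = 0.0414), and its call was lost without each rat but 218 (adjusted p = 0.0522 to 0.118). Clcn5, which like Clcn4 works in endosomes, had a log2 fold change of 0.06, and Clca4 and Clca5 were dim and not called. With any 1 rat left out, 1 or 2 CLC genes were called.

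Among the 6 CLIC genes, 1 was higher, 1 lower and 4 not called (33.3% called, near the 25.9% of all clusters). CLIC proteins occur in a soluble and a membrane form, and their role as channels in cells is debated. Clic1 was at 6.60, 6.83, 6.57 and 6.94 in MBP-EAE and 4.69, 4.94, 4.29 and 4.78 in healthy cords. Rat 195 was the lowest healthy value, and the groups stood 1.63 log2 units apart (4.16-fold higher, log2 fold change 2.06 ± 0.15, adjusted p = 5.91e-06). The part of the macrophage and microglial markers in this rise was not tested either. Clic5, which binds to the cytoskeleton beneath the membrane, was at 4.46, 4.13, 4.45 and 4.13 in MBP-EAE and 4.62, 4.63, 4.84 and 4.68 in healthy cords. The MBP-EAE values formed 2 pairs, both below the healthy range (log2 fold change -0.40 ± 0.11, adjusted p = 0.0274), and the call was lost without rat 218, 241, 194 or 196 (adjusted p = 0.0539 to 0.0848). Clic4, the brightest of the family in healthy cords, was at 8.11, 8.24, 7.75 and 8.45 in MBP-EAE and 8.05, 7.88, 7.45 and 7.90 in healthy cords, with groups that overlapped (log2 fold change 0.32 ± 0.17, adjusted p = 0.214). Clic3 had separate groups without a call (log2 fold change -0.29, adjusted p = 0.0664). Of the fits with 1 rat left out, that without rat 219 alone called Clic3 (adjusted p = 0.0405, and up to 0.178 with another rat left out). It was also called in 4 of the 9 other alternative analyses that tested it. Clic2 and Clic6 had log2 fold changes of 0.04 and -0.34.

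HCN and cyclic nucleotide-gated genes had 2 of 8 lower, 0 higher and 6 not called (25% called, near the 25.9% of all clusters). All 8 log2 fold changes were negative, although those of Cnga1 and Cnga3 were 0.03 and 0.06 without rat 195. Hcn2, a pacemaker channel of many central neurones, was at 5.04, 4.93, 5.12 and 5.11 in MBP-EAE and 5.43, 5.45, 5.39 and 5.37 in healthy cords. The healthy values lay within 0.08 of each other, and the groups were separate (log2 fold change -0.36 ± 0.09, adjusted p = 0.0129). Hcn4, the slowest of the family to open, was at 4.62, 4.58, 4.60 and 4.50 in MBP-EAE and 4.77, 4.87, 5.10 and 4.81 in healthy cords. Rat 195 was highest here (log2 fold change -0.31 ± 0.10, adjusted p = 0.0432), and the call was lost without each rat but 193 (adjusted p = 0.0614 to 0.118). Hcn3, Cngb1 and the 4 Cnga genes were not called, with log2 fold changes between -0.21 for Cngb1 and -0.07 for Cnga3.

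Of the 5 acid-sensing channel genes, Asic2 was lower and the other 4 were not called (20% called, under the 25.9% of all clusters). Asic2 was at 5.52, 5.16, 5.48 and 5.48 in MBP-EAE and 6.04, 6.01, 5.85 and 5.88 in healthy cords. MBP-EAE rat 218 stood below the other 3, all of which were below every healthy value (1.45-fold lower, log2 fold change -0.53 ± 0.11, adjusted p = 0.00521). Asic1, the most studied proton sensor of central neurones, had a log2 fold change of -0.06 with a 95% confidence interval of -0.30 to 0.19, and Asic3, Asic4 and Asic5 had values of -0.27, -0.24 and -0.20. Ano7, the 1 anoctamin, was at 4.00, 4.21, 4.18 and 4.01 in MBP-EAE and 4.18, 4.31, 4.54 and 4.31 in healthy cords, so that the groups overlapped (log2 fold change -0.24 ± 0.11, adjusted p = 0.143).

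**Figure D4:**
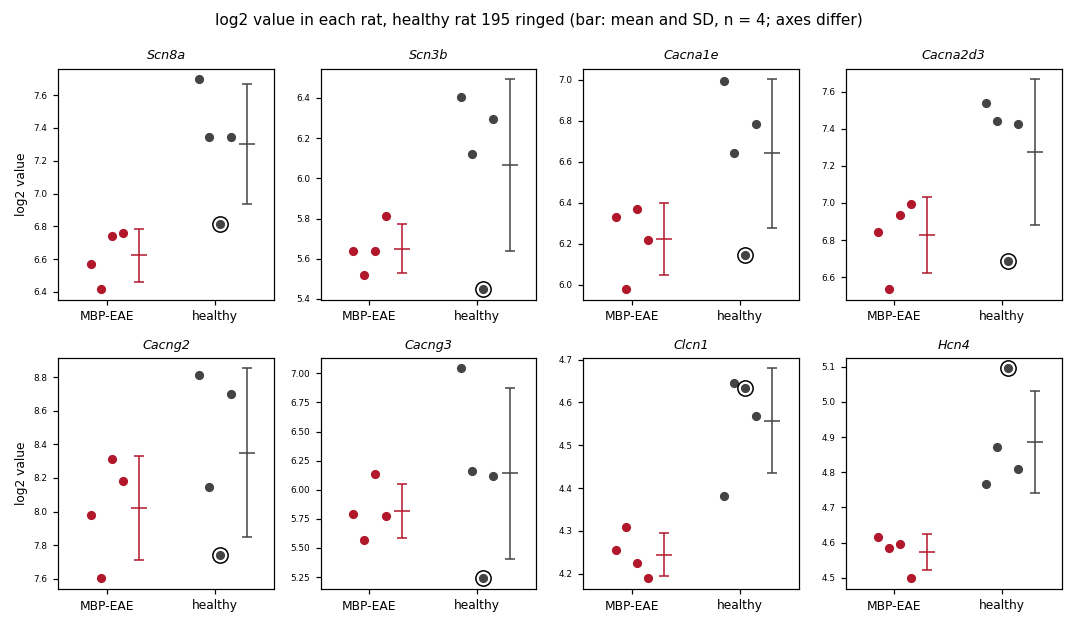
The log2 value (y axis, each panel on its own scale, not from 0) in each of the 4 MBP-EAE rats (red, left) and 4 healthy rats (grey, right) for 8 channel genes, with healthy rat 195 ringed and means with SD (n = 4) as bars. For Scn8a, Scn3b, Cacna1e, Cacna2d3, Cacng2 and Cacng3 the ringed value is the lowest healthy value, and for Hcn4 the highest; the Clcn1 panel shows it among the others.

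Leaving out rat 195 left the number of called members at 31, of which 27 were called with all rats. Scn3b, Cacna1e, Cacna2d3 and Trpv2 were gained, and Cacnb1, Clcn1, Clcn2 and Hcn4 were lost. With each of the 8 rats left out in turn, 17 of the 31 calls held throughout, 5 of higher and 12 of lower genes, and all 31 kept their sign. The total was 19 without rat 217 or 196, and the count of lower genes was 14 without rat 217, 241 or 196 and 15 without rat 218 or 194. With cyclic loess between the arrays, 17 members were lower and 10 higher, so that 63% of the called members were lower, against 77.4% with the deposited values. In that fit Clic4, Trpv2 and Orai3 were called higher (log2 fold changes 0.45, 0.35 and 0.26), and Cacna1b, Cacna1d, Cacnb1, Trpm7, Clcn1, Clcn2 and Clic5 were no longer called. The other renormalizations went the other way. That by quantiles gave 30 lower and 8 higher members (78.9% lower), and centring the arrays on their medians gave 29 and 6 (82.9% lower).

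Genes of proteins that work beside the channels were measured in 4 lists, where 14.6% of all clusters were called lower and 11.3% higher. Of 13 sodium channel partners of the initial segment and node, 7 were lower and 1 higher, Nedd4l, a ubiquitin ligase that removes sodium channels from the membrane (log2 fold change 0.82 ± 0.24, adjusted p = 0.0296). Of 15 calcium channel partners at release sites and in membranes 7 were lower and 0 higher. Rims2, which tethers calcium channels at the release site, fell by 0.99 on the log2 scale (adjusted p = 0.000243). Dpp10, a dipeptidyl peptidase-like membrane protein, fell by 1.15 (adjusted p = 7.85e-05), and its link to calcium channels was not tested. The median log2 fold change was -0.49 in both lists. It was also -0.49 in the sodium channel genes, but -0.33 in the calcium channel pore genes and -0.33 in the auxiliary genes. Of 12 partners of calcium stores 3 were lower and 2 higher, the calcium-binding chaperone Calr (log2 fold change 1.07 ± 0.18, adjusted p = 0.00170) and the disulphide isomerase Pdia3 (0.49 ± 0.13, adjusted p = 0.0220). Of 8 further subunits 1 was lower, Pex5l, the auxiliary subunit of HCN channels, at 7.76, 7.69, 7.87 and 7.99 in MBP-EAE and 9.13, 8.96, 8.52 and 9.08 in healthy cords. Those groups did not overlap (log2 fold change -1.10 ± 0.14, adjusted p = 0.000365).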

How the data were processed

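RNA of 8 spinal cords, 4 MBP-EAE and 4 healthy control, was measured on Affymetrix Rat Exon 1.0 ST arrays. In Partek the authors applied an RMA background correction that allowed for probe GC content, then quantile normalization, and they deposited log2 values in which the core probe sets of a gene had been averaged. Their processing notes name Affymetrix Expression Console and the rat build rn4. Values without detection calls or raw intensities were used, so that precision is limited by the 4 arrays of each group. The methods examined batches and report that their effect was not significant. The batch of each rat is not given in the sources used here, and no batch term was fitted. The labels call the controls littermates without giving the litter of each rat, so litter was not modelled. The limma p-values set the group difference against the spread between these rats within groups, which eBayes moderates with that of all clusters.

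Groups followed the sample labels. A model with group as its single term was fitted to the deposited values by limma 3.58.1 (R 4.3.3, lmFit then eBayes). Benjamini-Hochberg adjustment covered all 8793 clusters, and the threshold was 0.05. Clusters were named from the platform table, which gives 1 symbol for 7603, several for 409 and does not list 781. Figures were drawn with matplotlib 3.10.9, and the limma script was tested on simulated data. The alternatives tried were a plain t-test, Welch's test, an intensity trend with a robust prior, and array weights. Others were renormalization by quantiles, by cyclic loess or to the array median, and filters at the lower quartile and the median. The last were 1 value for each gene, and each rat left out. The paper names a t-test in its results and an analysis of variance that examined batches in its methods. The members, the families, the marker and partner lists and the alternatives were chosen with earlier results of these data known. In each family the genes described 1 by 1 were the 3 largest called rises and falls, called genes against the majority, the gene with the highest healthy signal (a choice of what to describe, since levels of different probes cannot be compared), channel genes that the paper names, those nearest to the threshold, and the 3 largest partner changes in each direction. Others given by value (Scn2b, Scn3b, Scn7a and further uncalled genes) were added after their values were seen.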

Additional observations from a re-analysis of the deposited data

Results flagged for a closer look

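In 62 groups of 4 rats, both groups of each of 31 described genes, 2 single rats stood apart from the other 3 of their group by more than Dixon's 95% critical value for 4 samples (0.829 of the group's range). Chance gives about 1 in 20 groups. For Asic2, MBP-EAE rat 218 was at 5.16, against 5.48 to 5.52 in the other MBP-EAE rats, a gap of 0.891 of the range. For Cacna2d1, healthy rat 196 was at 7.79, against 7.51 to 7.55 in the other healthy rats, a gap of 0.877 of the range. Both genes stayed called without that rat, and the cause was not tested.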

How the results depend on the processing

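No paired analysis was possible because the rat numbers in the labels are not shared between MBP-EAE and healthy control. None of the 31 called genes changed sign with a rat left out, but 9 uncalled members with small changes did: Cacna1f, Clca5, Clcn5, Cnga1, Cnga3, Scn11a and Trpa1 without rat 195, Cacnb3 without rat 217, and Clic2 in 3 of the 8 fits. With Welch's test 15 members were lower in place of 24, and the counts of called genes were 3 calcium channel pores, 3 auxiliary subunits, 1 release gene, 2 CLC, 1 CLIC and 1 HCN gene. With array weights, which gave rat 195 a weight of 0.264, 37 were lower, with 8 auxiliary subunits, 10 TRP genes, 1 anoctamin, 3 acid-sensing genes and 32 partner genes (21 without weights) called. With cyclic loess, 3 pores and 2 CLC genes were called and the members' median log2 fold change was -0.15. Centring the arrays on their medians gave 1 release gene and 1 anoctamin. With clusters under the median left out, 3 pores, 1 CLC, 1 CLIC and 1 HCN gene were called, and the median over the 35 members left was -0.36. The cause of these shifts was not tested, except that the filter leaves fewer members. With 1 rat left out, 19 to 31 members were called (5 to 8 higher, 14 to 23 lower), with a median of -0.29 to -0.19. By family these were 3 to 5 sodium, 1 to 6 pore, 4 to 5 auxiliary, 4 to 7 TRP, 1 to 2 release, 1 to 2 CLC, 1 to 3 CLIC, 1 to 2 HCN, 0 to 0 anoctamin and 1 to 1 acid-sensing genes, with 17 to 26 partner genes and 35 to 45 cell type markers. The plain t-test called 8 higher and 30 lower members at an unadjusted threshold and 8 and 23 after Benjamini-Hochberg adjustment. In 14 of the 31 genes the call held in every alternative that tested the gene. Clcn7, Cacng7 and Trpc5 kept their calls with each rat left out but lost them with Welch's test (adjusted p = 0.0546, 0.0610 and 0.103). Scn8a and Clcn4 lost theirs with both Welch's test and the plain t-test (t-test adjusted p = 0.0594 and 0.0774). Of the 16 dim members 0 were called by limma (2 at an unadjusted p under 0.05), beside 98 of 2198 dim clusters, and the cause was not tested.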
